A study of Rattus norvegicus with 18 samples.

Results

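The uncoupling proteins and the genes around them that serve heat production in fat were followed in rats after Roux-en-Y gastric bypass (RYGB), weight-loss surgery in which food passes from a reduced stomach straight into the jejunum. The set holds 8 genes, Ucp1, Ucp2, Ucp3, Ppargc1a, Dio2, Adrb3, Elovl3 and Cpt1b, taken by name, with every probe set whose only gene symbol in the platform annotation was one of them. That gave 11 probe sets of the 31042 that were not array controls, and 8 of 14217 named genes. RNA came from subcutaneous abdominal fat and from hypothalamus, on 9 arrays each. In each tissue 3 arrays were from animals labelled RYGB-Success, which were losing weight after the operation, 3 from animals labelled RYGB-Fail, which were gaining weight, and 3 from animals labelled Pair-Fed, which were given the amount of food that the treated rats ate. The labels used here give no strain, sex, age or time after surgery and name no operation on the Pair-Fed rats, so bypass and surgery as such cannot be told apart. The labels call the 3 samples of a group biological replicates. The deposited values are linear signal intensities scaled by the authors to 1 common mean per array, and differences are given below on the log2 scale.

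Brown fat burns fuel for heat. Noradrenaline acts on the beta-3 adrenergic receptor, encoded by Adrb3, cyclic AMP rises, and the coactivator PGC-1alpha, encoded by Ppargc1a, raises mitochondrial genes, among them Ucp1, whose protein lets protons leak across the inner membrane so that energy is released as heat. Dio2 encodes the deiodinase that makes active thyroid hormone inside the cell, Elovl3 a fatty acid elongase of brown fat under cold, and Cpt1b the muscle form of the enzyme that admits long-chain fatty acids to mitochondria. Ucp2 is found in many tissues, immune cells and neurons included, and Ucp3 mainly in skeletal muscle and brown fat. White subcutaneous fat holds few cells with Ucp1 unless cold or adrenergic drive recruits beige adipocytes.

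The stretch before the gene start is shown for the 3 uncoupling proteins, which are close relatives, and for Ppargc1a, whose letters hold a full cyclic AMP response element. Windows of 250 bases before the start were taken from RefSeq's table of the GRCr8 build, which held 6 of the 8 genes. Capitals mark matches on either strand to any of 4 motifs. The first is the cyclic AMP response element, TGACGTCA. The second is its core, TGACG, which lies within the first. The third is a common form of the TATA box near gene starts, TATAAA. The fourth is the element of oestrogen-related receptors, TNAAGGTCA, which had no match in the 6 windows. The Ucp1 window is chr19:41721422-41721671 on the minus strand, the Ucp2 window chr1:164251123-164251372 and the Ucp3 window chr1:164227660-164227909, both on the plus strand, and the Ppargc1a window chr14:63634058-63634307 on the plus strand.
Ucp1: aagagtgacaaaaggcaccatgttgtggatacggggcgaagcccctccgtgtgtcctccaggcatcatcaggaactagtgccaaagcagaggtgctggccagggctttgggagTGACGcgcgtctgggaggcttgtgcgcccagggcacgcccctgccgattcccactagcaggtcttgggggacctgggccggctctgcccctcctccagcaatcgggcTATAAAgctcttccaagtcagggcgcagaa
Ucp2: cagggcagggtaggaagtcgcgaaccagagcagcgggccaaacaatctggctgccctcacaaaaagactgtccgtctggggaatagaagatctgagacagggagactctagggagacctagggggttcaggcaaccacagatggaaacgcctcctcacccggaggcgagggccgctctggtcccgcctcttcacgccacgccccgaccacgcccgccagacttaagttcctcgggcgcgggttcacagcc
Ucp3: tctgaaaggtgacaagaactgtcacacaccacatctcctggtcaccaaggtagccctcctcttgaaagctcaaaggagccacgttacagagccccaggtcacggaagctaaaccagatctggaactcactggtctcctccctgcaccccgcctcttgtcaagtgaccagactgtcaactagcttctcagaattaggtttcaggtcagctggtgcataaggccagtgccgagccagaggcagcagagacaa
Ppargc1a: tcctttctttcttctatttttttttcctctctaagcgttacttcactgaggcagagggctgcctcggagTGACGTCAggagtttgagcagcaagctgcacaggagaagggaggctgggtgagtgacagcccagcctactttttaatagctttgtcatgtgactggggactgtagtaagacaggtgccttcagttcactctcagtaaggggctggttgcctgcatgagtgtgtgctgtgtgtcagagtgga
Ucp1 carried the TATA box letters from base 30 to base 25 before the start and the core of the cyclic AMP response element from base 137 to base 133. Ppargc1a carried the full cyclic AMP response element from base 181 to base 174. Among 33469 windows of this length the TATA box letters occurred in 12.9%, the full element in 1.59%, its core in 18.2% and the receptor element in 1.04%. The Ucp2 and Ucp3 windows held none of the 4. In RefSeq's order of genes Ucp3 and Ucp2 lie side by side on 1 strand of chromosome 1, with 0 protein-coding genes between them. A match describes these letters and says nothing of what binds there.

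The arrays differed in ways that touch several members. Adipoq, the adipocyte hormone adiponectin, had signals of 17271 to 60117 in fat, against 86.0 to 410 in hypothalamus, which fits the tissue labels. Median signals were 163, 165 and 200 on the RYGB-Success fat arrays, 98.2, 102 and 288 on the RYGB-Fail fat arrays and 126, 134 and 147 on the Pair-Fed fat arrays. RYGB-Fail array 3 stood apart, with the highest median, the lowest 3' to 5' signal ratio of beta-actin in fat (2.46, against 12.03 to 24.3 on the others) and the lowest array weight (0.175). Skeletal muscle transcripts were high on RYGB-Fail arrays 1 and 2. Over the muscle marker genes without Myh1 the mean log2 signal was 6.40, 6.43 and 7.48 in RYGB-Success, 10.91, 13.51 and 7.83 in RYGB-Fail and 5.77, 6.46 and 5.35 in Pair-Fed, and Ckm, muscle creatine kinase, ran from 260 to 23944 in RYGB-Fail, from 13.2 to 249 in RYGB-Success and from 4.22 to 63.7 in Pair-Fed. In hypothalamus the same mean was 5.19 to 6.18. The beta-actin ratio there was 179 on Pair-Fed array 2, against 6.65 to 48.5 on the other arrays. In whole tissue, fewer cells of a type and less RNA per cell cannot be told apart.

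Near background was taken as a tissue mean under the lowest mean signal of the upper 60% of probe sets, which was 88.9 in fat and 52.7 in hypothalamus. As a second yardstick, 19 genes of testis, exocrine pancreas, retina and kidney tubule had array signals whose 5th and 95th percentiles were 3.98 and 356 in fat and 2.14 and 296 in hypothalamus, and 16 of the 19 in fat and 17 in hypothalamus had means under the filter's signal. By the first measure Ucp1, Dio2 and Elovl3 lay near background in fat, and Ucp2, Ucp3, Ppargc1a, Adrb3 and Cpt1b passed through 6 of the 11 probe sets. The probe sets 1382958_at of Ucp3 and 1370089_at of Ppargc1a did not pass in fat although another of their gene did. In hypothalamus 5 probe sets passed, those of Ucp2 and Cpt1b and all 3 of Ppargc1a, and the other 5 genes lay near background. Ucp2 and Adrb3 exceeded the 95th percentile of the unsampled-organ genes of the same array on 9 of 9 fat arrays and Cpt1b on 7 of 9. Ppargc1a did so on 5 of 9 with 1395518_at and on 1 of 9 with 1393743_at, and Ucp3 on 2 of 9 with 1387681_at. Signals of different probe sets depend on their probes and are not ranked against each other here.

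**Figure D1:**
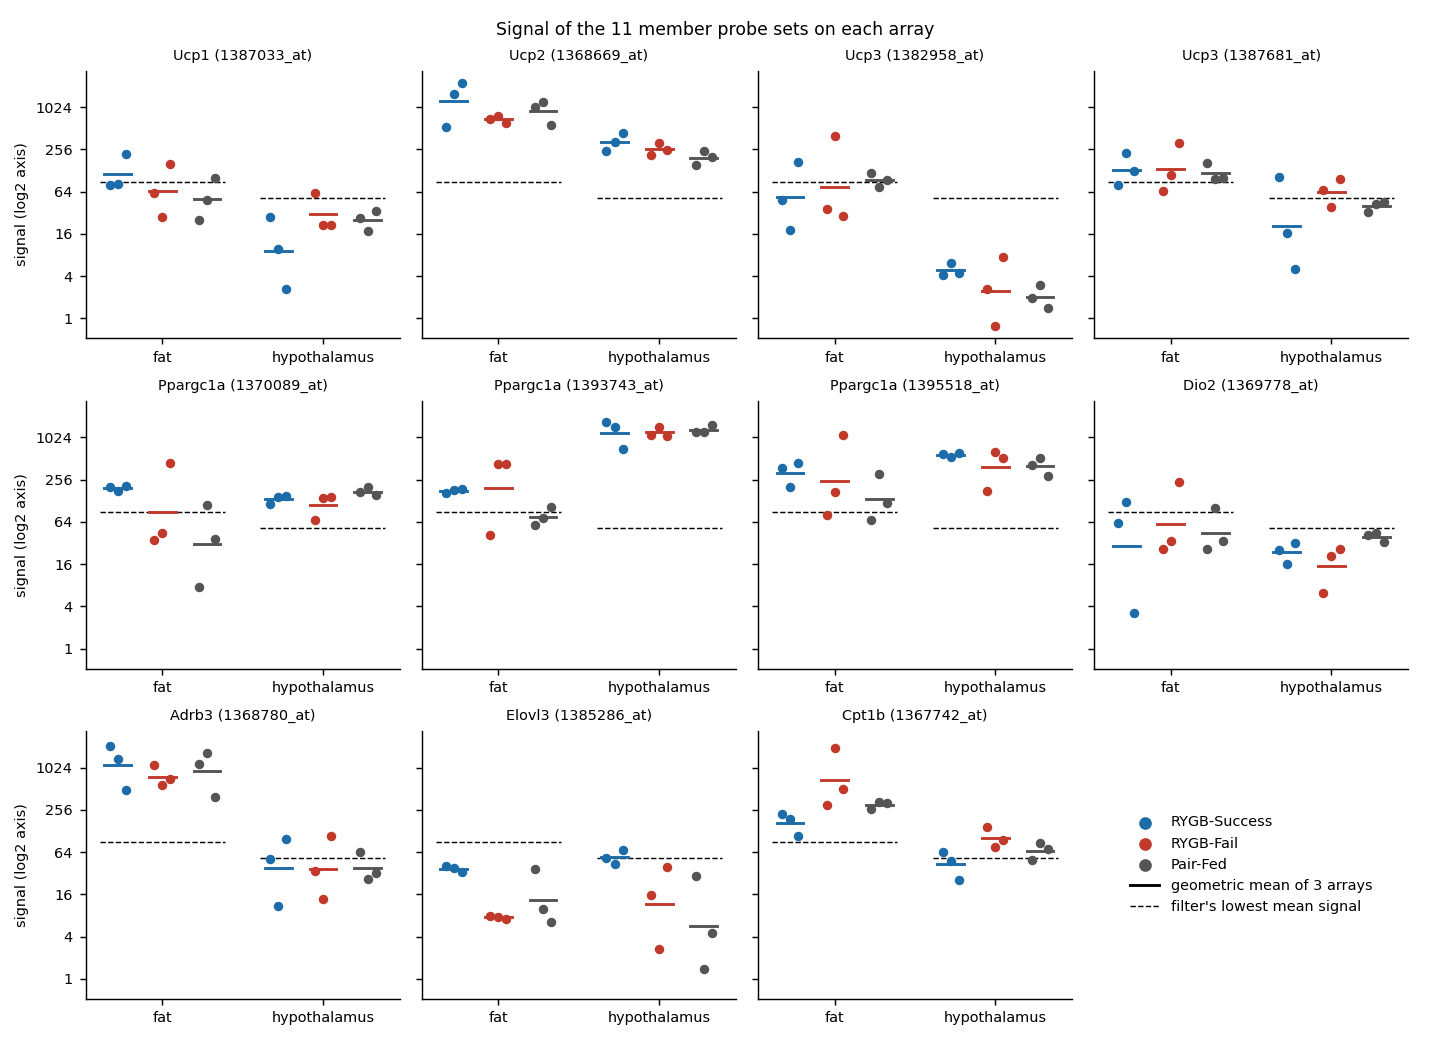
Signal of each of the 11 probe sets (log2 axis) on every array, in fat and in hypothalamus, with RYGB-Success, RYGB-Fail and Pair-Fed from left to right; points are arrays, solid bars geometric means of 3 arrays and dashed lines the mean signal at which the filter was set (88.9 in fat, 52.7 in hypothalamus). Ucp2 and Adrb3 lie above the fat line on every fat array, Elovl3 lies below it on every fat array, and Ppargc1a 1393743_at is higher in hypothalamus than on any fat array.

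Across the 3 treatments no member passed in fat. Of 18625 probe sets tested in fat, 0 passed in any of the 3 comparisons (0% called in each, limma with Benjamini-Hochberg adjustment), with 905 (RYGB-Success over Pair-Fed), 501 (RYGB-Fail over Pair-Fed) and 1060 (RYGB-Success over RYGB-Fail) at an unadjusted p under 0.05. Of the 6 member probe sets tested, 0, 0 and 1 were at an unadjusted p under 0.05. Their median differences were 0.39, 0.53 and 0.19, beside 0.11, -0.09 and 0.17 over all probe sets tested. The 3 comparisons share arrays, so they are not independent of each other.

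**Figure D2:**
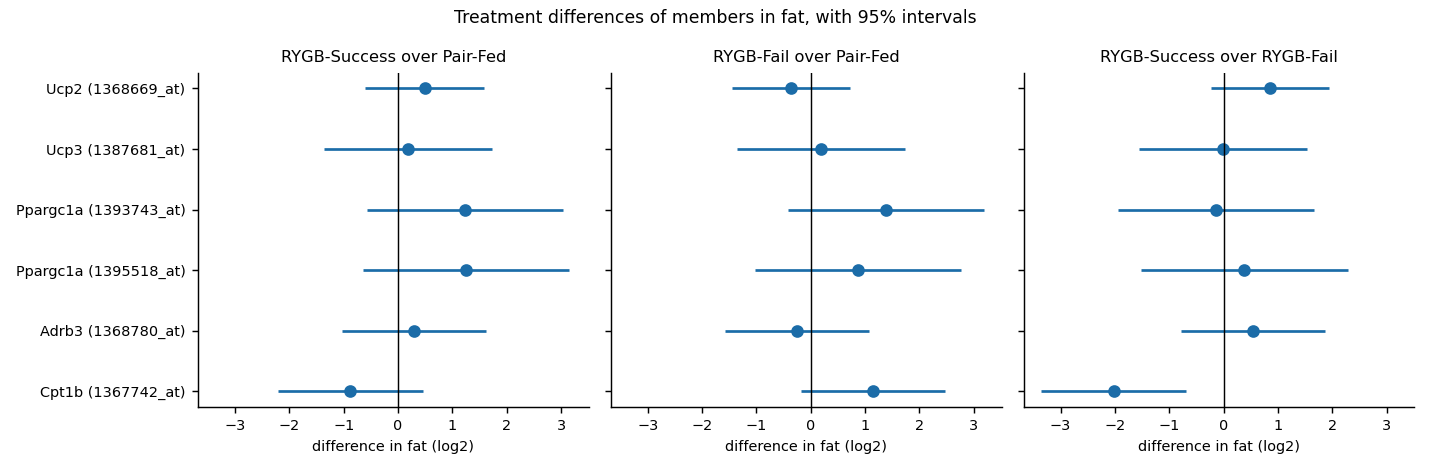
Log2 differences between treatments in fat (points, with 95% intervals from limma) for the 6 member probe sets that passed the filter, 1 panel for each comparison. Only the interval of Cpt1b in RYGB-Success over RYGB-Fail, -3.35 to -0.69, leaves out 0, before any adjustment over all probe sets.

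Among the uncoupling proteins, Ucp1, the heat-producing carrier of brown fat, had a tissue mean near background in fat, with geometric group means of 113 in RYGB-Success, 65.1 in RYGB-Fail and 49.9 in Pair-Fed. Its signals were 79.3, 81.3 and 223 in RYGB-Success, 62.2, 28.1 and 158 in RYGB-Fail and 25.6, 48.4 and 100.4 in Pair-Fed. The groups overlapped, and on 8 of the 9 arrays Ucp1 lay below the array's own median, RYGB-Success array 3 being the exception. With no filter the difference was 1.18 ± 0.96 (SE) for RYGB-Success over Pair-Fed and 0.38 ± 0.96 for RYGB-Fail over Pair-Fed (adjusted p = 0.986 and 1.00). The 95% interval of the first, -0.88 to 3.23, is wide enough to hold both no difference and a large one.

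Ucp2, a carrier related to Ucp1 and not known for heat production, was well above background on all fat arrays. Its signals were 536, 1587 and 2274 in RYGB-Success, 701, 776 and 608 in RYGB-Fail and 1020, 1206 and 570 in Pair-Fed. RYGB-Success held both the lowest and the highest of the 9 values, so it spanned the other groups, and the order of the group means (RYGB-Success, Pair-Fed, RYGB-Fail) was within their spread. The differences were 0.49 ± 0.50 for RYGB-Success over Pair-Fed, -0.36 ± 0.50 for RYGB-Fail over Pair-Fed and 0.85 ± 0.50 for RYGB-Success over RYGB-Fail (adjusted p = 0.975, 1.00 and 0.895). The first was 0.054 without RYGB-Success array 3, 0.31 without array 2 and 1.10 without array 1. On the 2 RYGB-Success arrays with high Ucp2, arrays 2 and 3, epithelial markers (mean log2 signal over 11 genes) were at 9.51 and 9.03, against 5.49 on array 1, and on array 3 lymphocyte markers (10 genes) were at 9.85, against 6.52 to 7.56 on the other fat arrays. Their part in the Ucp2 values was not tested.

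Ucp3, the muscle-type uncoupling protein, was read by 2 probe sets that did not follow each other. With 1387681_at the signals were 79.9, 227 and 126 in RYGB-Success, 66.2, 111 and 320 in RYGB-Fail and 163, 95.6 and 101 in Pair-Fed. With 1382958_at, which was near background, they were 48.7, 18.3 and 167 in RYGB-Success, 35.9, 399 and 29.2 in RYGB-Fail and 120, 73.3 and 93.0 in Pair-Fed. The groups overlapped with both. The highest array was RYGB-Fail array 3 with the first probe set and RYGB-Fail array 2, the array with most muscle signal, with the second. The tested probe set differed by 0.18 ± 0.71 for RYGB-Success over Pair-Fed, by 0.19 ± 0.71 for RYGB-Fail over Pair-Fed and by -0.01 ± 0.71 for RYGB-Success over RYGB-Fail (adjusted p = 0.984, 1.00 and 0.998).

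Upstream of Ucp1, Adrb3, the receptor through which noradrenaline drives lipolysis and heat production in rodent fat, was expressed on all fat arrays with no order by treatment. Its signals were 2088, 1364 and 483 in RYGB-Success, 1122, 570 and 692 in RYGB-Fail and 1152, 1648 and 395 in Pair-Fed. The lowest values of RYGB-Success and Pair-Fed lay under all of RYGB-Fail and their highest above all of it. Differences were 0.29 ± 0.61 for RYGB-Success over Pair-Fed, -0.25 ± 0.61 for RYGB-Fail over Pair-Fed and 0.55 ± 0.61 for RYGB-Success over RYGB-Fail (adjusted p = 0.975, 1.00 and 0.907). Dio2, the activating deiodinase, had signals of 60.7, 122 and 3.24 in RYGB-Success, 26.0, 34.5 and 233 in RYGB-Fail and 26.0, 100.8 and 34.2 in Pair-Fed. The Dio2 groups overlapped, and all 9 values were below the median of their own array. With no filter Dio2 differed by -0.63 ± 1.39 for RYGB-Success over Pair-Fed, by 0.41 ± 1.39 for RYGB-Fail over Pair-Fed and by -1.04 ± 1.39 for RYGB-Success over RYGB-Fail (adjusted p = 0.986, 1.00 and 0.961).

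Ppargc1a, the coactivator of mitochondrial genes, spread widely across RYGB-Fail fat with all 3 probe sets (log2 SD 1.93 to 2.02) and less across RYGB-Success fat (0.11, 0.12 and, with 1395518_at, 0.61). With 1393743_at the signals were 163, 184 and 188 in RYGB-Success, 41.9, 426 and 427 in RYGB-Fail and 57.7, 72.6 and 103 in Pair-Fed. All 3 RYGB-Success values exceeded all 3 Pair-Fed values, while RYGB-Fail lay on both sides of the other groups. With 1395518_at they were 374, 198 and 444 in RYGB-Success, 79.7, 169 and 1097 in RYGB-Fail and 67.5, 304 and 118 in Pair-Fed, and all groups overlapped. With 1370089_at, near background, they were 200, 176 and 206 in RYGB-Success, 35.0, 44.3 and 443 in RYGB-Fail and 7.50, 111 and 36.4 in Pair-Fed, and RYGB-Success again exceeded Pair-Fed on every array. The lowest RYGB-Fail value was on array 1 and the highest on array 3 with each of the 3 probe sets.

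For RYGB-Success over Pair-Fed the Ppargc1a difference was 1.24 ± 0.83 with 1393743_at and 1.26 ± 0.87 with 1395518_at (adjusted p = 0.975 for both), and 2.63 ± 1.14 with 1370089_at when no filter was set (unadjusted p = 0.0354, adjusted p = 0.986). None passed. Groups in which every RYGB-Success array lay above every Pair-Fed array were 1 of the 6 tested member probe sets, beside 10.9% of all probe sets tested, and those in which every one lay below were 1 of 6, that of Cpt1b, beside 7.69%. The median array signal was itself higher on all RYGB-Success arrays (163 to 200) than on all Pair-Fed arrays (126 to 147), and with each array centred on its median the difference with 1393743_at was 0.86 ± 0.72. For RYGB-Fail over Pair-Fed the differences were 1.38 ± 0.83 with 1393743_at and 0.87 ± 0.87 with 1395518_at (adjusted p = 1.00 for both). The second turned to -0.21 without RYGB-Fail array 3, and the first was 0.82 without that array, 0.82 without array 2 and 2.50 without array 1. With array weights they were 0.11 ± 0.69 and -0.24 ± 0.68, and with the muscle markers as a covariate 1.55 ± 1.42 and 2.73 ± 1.36 (adjusted p = 0.553 and 0.300). The muscle marker mean was higher on every RYGB-Fail array than on any other fat array, so the covariate fit reaches beyond shared levels. RYGB-Success over RYGB-Fail gave -0.14 ± 0.83 and 0.38 ± 0.87 (adjusted p = 0.979 and 0.940).

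Of the enzymes of fatty acid use, Elovl3, the elongase, was near background in fat, with signals of 40.2, 38.2 and 33.7 in RYGB-Success, 7.90, 7.58 and 7.21 in RYGB-Fail and 37.1, 9.75 and 6.42 in Pair-Fed. RYGB-Success lay above RYGB-Fail on every array, and every value was below the filter's signal. In hypothalamus the signals were 52.5, 42.7 and 69.2 in RYGB-Success, 15.4, 2.68 and 38.9 in RYGB-Fail and 29.6, 1.39 and 4.45 in Pair-Fed. There too RYGB-Success lay above RYGB-Fail, and also above Pair-Fed, at a mean near background. With no filter the difference of RYGB-Success over RYGB-Fail was 2.30 ± 1.15 in fat (unadjusted p = 0.0640, adjusted p = 0.961) and 2.20 ± 1.25 in hypothalamus (unadjusted p = 0.0968), and that of RYGB-Success over Pair-Fed in hypothalamus 3.24 ± 1.25 (unadjusted p = 0.0191, adjusted p = 0.380). Pair-Fed alone ran from 6.42 to 37.1 in fat and from 1.39 to 29.6 in hypothalamus, so no level is drawn from these values.

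Cpt1b, the muscle form of carnitine palmitoyltransferase 1, had the lowest p of the set in fat. Its signals were 222, 190 and 107 in RYGB-Success, 301, 1962 and 514 in RYGB-Fail and 263, 329 and 323 in Pair-Fed. All RYGB-Success arrays lay below all others, and RYGB-Fail overlapped Pair-Fed, with array 2 standing far above. RYGB-Success over RYGB-Fail gave -2.02 ± 0.61 (unadjusted p = 0.00620, adjusted p = 0.790), RYGB-Success over Pair-Fed -0.88 ± 0.61 (adjusted p = 0.975) and RYGB-Fail over Pair-Fed 1.15 ± 0.61 (adjusted p = 1.00). None passed. Groups in which every RYGB-Success array lay below every RYGB-Fail array were 1 of 6 member probe sets, beside 2.61% of all probe sets tested, and 0 of 6 lay above, beside 5.26%. Of RYGB-Fail against Pair-Fed 0 of 6 lay wholly above and 0 wholly below, beside 2.57% and 4.33%.

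Cpt1b encodes the muscle form of its enzyme. The array on which Cpt1b reached 1962 was the RYGB-Fail array on which the muscle markers were highest. On RYGB-Fail array 1, at a muscle marker mean without Myh1 of 10.91, it was 301, and on array 3, at 7.83, it was 514. What part muscle had in the Cpt1b values was not tested, and the fits that follow are descriptions. The mean with Myh1, 8.11 to 13.52 in RYGB-Fail, did not overlap that of RYGB-Success (6.75 to 7.74) or Pair-Fed (5.71 to 6.76). Covariate fits of RYGB-Fail against either group thus reach beyond shared marker levels. With the mean of the muscle markers as a covariate in the model the difference of RYGB-Fail over Pair-Fed was -0.16 ± 0.95, that of RYGB-Success over RYGB-Fail -0.97 ± 0.83 and that of RYGB-Success over Pair-Fed -1.13 ± 0.56 (adjusted p = 0.939, 0.649 and 0.432). Without RYGB-Fail array 2 the difference of RYGB-Fail over Pair-Fed was 0.37 ± 0.48 and that of RYGB-Success over RYGB-Fail was -1.25 ± 0.48. Without RYGB-Fail array 3 RYGB-Success over RYGB-Fail gave -2.22 ± 0.65 (adjusted p = 0.0693), with 1116 of all probe sets passing. Cpt1a, the form of the same enzyme in liver and most other tissues, had signals of 1987, 3963 and 3072 in RYGB-Success, 2145, 1708 and 985 in RYGB-Fail and 2618, 3479 and 2211 in Pair-Fed. Its difference of 0.91 ± 0.37 for RYGB-Success over RYGB-Fail had the opposite sign to that of Cpt1b and did not pass (adjusted p = 0.839).

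**Figure D3:**
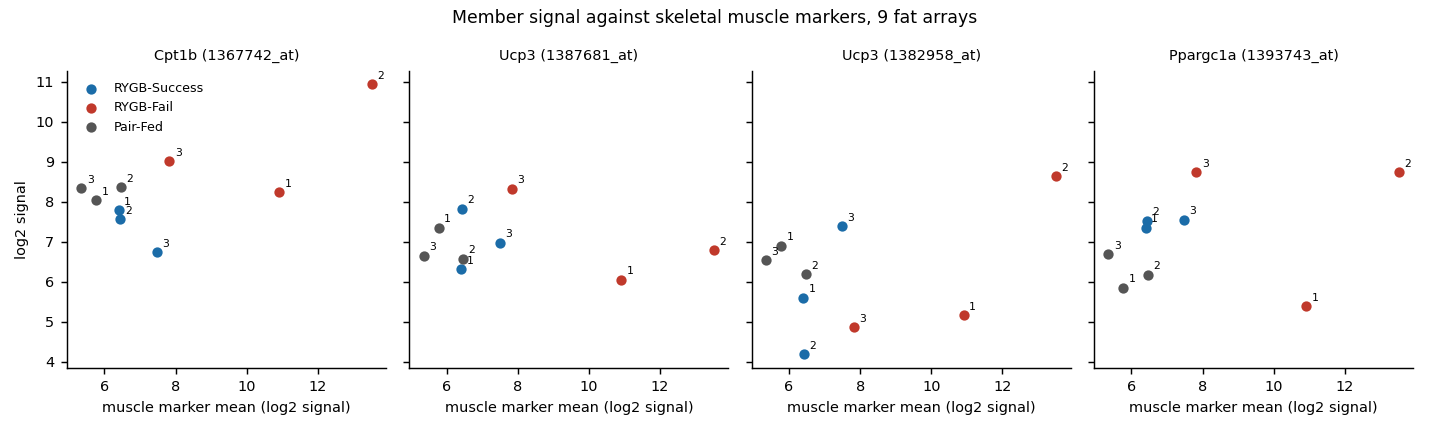
Log2 signal of Cpt1b, both Ucp3 probe sets and Ppargc1a 1393743_at on the 9 fat arrays against the mean log2 signal of the skeletal muscle markers without Myh1; colours are groups and numbers are replicates. RYGB-Fail array 2, at a marker mean of 13.51, has the highest Cpt1b and the highest Ucp3 1382958_at signal, while RYGB-Fail array 1, at 10.91, has neither.

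Between the tissues 4 of the 11 probe sets did not overlap, with Ucp2, Adrb3 and Ucp3 1382958_at higher on every fat array and Ppargc1a 1393743_at lower. Of 7 member probe sets above the filter in either tissue, 4 were higher in fat and 2 lower, beside 39.7% higher and 26.4% lower of 21719 probe sets tested. Adrb3 and Ucp3 1387681_at entered this count through fat alone and Ppargc1a 1370089_at through hypothalamus alone. Each was thus admitted by the tissue in which it was higher. The count is therefore a description, and so are the adjusted p of these probe sets between the tissues. The labels do not say whether fat and hypothalamus came from the same rats, and the fit took the 18 arrays as separate. Adrb3 was higher in fat on every array, with 395 to 2088 in fat and 10.9 to 107 in hypothalamus. The fitted difference was 4.61 ± 0.47 (adjusted p = 8.29e-08). With hypothalamus arrays under 52.7 set to that signal, the geometric mean in fat was 14.7-fold that in hypothalamus. Ucp2 was also higher in fat on every array, with 536 to 2274 against 152 to 431 in hypothalamus, a difference of 1.86 ± 0.25 or 3.62-fold (adjusted p = 3.50e-06). Cpt1b differed by 2.29 ± 0.34 (adjusted p = 9.83e-06), with 107 to 1962 in fat and 25.9 to 146 in hypothalamus, the lowest fat array being under the highest of hypothalamus.

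Ucp3 with 1387681_at was at 66.2 to 320 in fat and 5.001 to 104 in hypothalamus, so the tissues overlapped. The fitted difference was 1.77 ± 0.51 (95% interval 0.70 to 2.84, adjusted p = 0.00525), a description, since this probe set passed the filter in fat alone. With hypothalamus arrays under 52.7 set to that signal, the geometric mean in fat was 2.03-fold that in hypothalamus. With array weights the fitted difference did not pass (1.06 ± 0.50, adjusted p = 0.0667). With 1382958_at, below the filter in both tissues, the values were 18.3 to 399 in fat and 0.774 to 7.55 in hypothalamus and did not overlap. Ucp1 was at 25.6 to 223 in fat and 2.63 to 60.4 in hypothalamus, near background in both, with a difference of 1.91 ± 0.57 when no filter was set (adjusted p = 0.00756). Without a filter the median difference of all 31042 probe sets was itself 0.53, and 16135 of them passed, so no higher Ucp1 expression in fat is drawn from this. For Dio2 and Elovl3 the differences without a filter were 0.82 ± 0.68 and 0.02 ± 0.68 (adjusted p = 0.327 and 0.983).

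Ppargc1a went the other way. With 1393743_at it had 41.9 to 427 in fat and 689 to 1670 in hypothalamus, so every fat array lay below every hypothalamus array, with a difference of -3.16 ± 0.35 (adjusted p = 3.22e-07). With 1395518_at the values were 67.5 to 1097 in fat and 176 to 633 in hypothalamus. The difference of -1.03 ± 0.42 (adjusted p = 0.0391) was lost under quantile normalization within each tissue (adjusted p = 0.0609). It was also lost without any of 12 of the 18 arrays (highest adjusted p = 0.0930). With 1370089_at, at 7.50 to 443 in fat and 67.7 to 199 in hypothalamus, the difference was -0.77 ± 0.50 (adjusted p = 0.187), which passed with arrays centred on their median (-1.31 ± 0.41, adjusted p = 0.00975), with array weights (-1.06 ± 0.42, adjusted p = 0.0304) and without RYGB-Fail fat array 3 (-1.15 ± 0.41, adjusted p = 0.0184). The 3 probe sets thus had 1 sign and sizes from -0.77 to -3.16. Centring turned the split of all calls from 8613 higher and 5736 lower to 5430 higher and 8041 lower, and moved the median of all probe sets from 0.24 to -0.30. The 6 member calls, those of Adrb3 and Ucp3 being descriptions, kept their direction and passed under it.

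**Figure D4:**
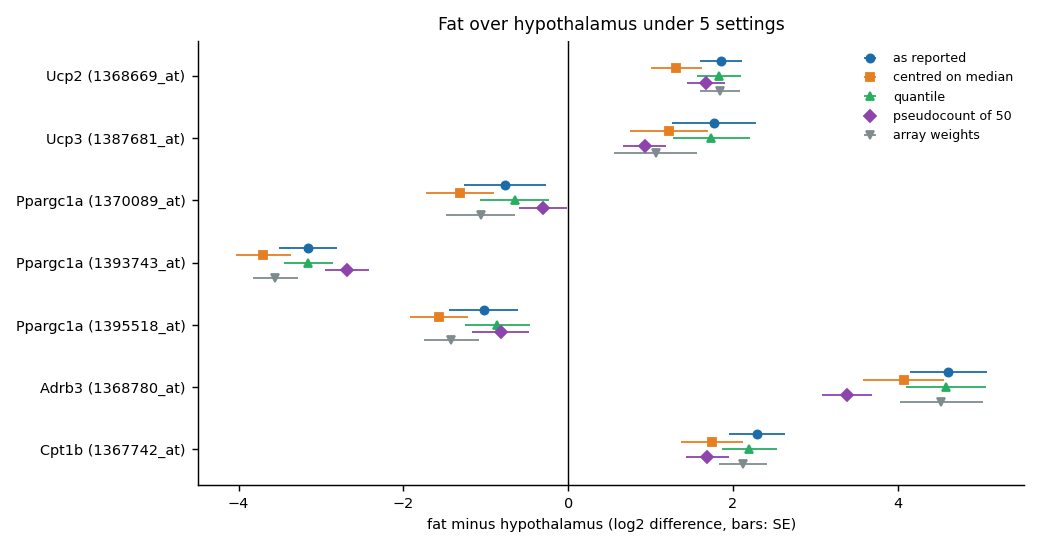
Fat minus hypothalamus on the log2 scale (bars are SE) for the 7 member probe sets above the filter in either tissue, as reported and under 4 other settings. Adrb3, Ucp2, Ucp3 and Cpt1b stay to the right of 0 and all 3 Ppargc1a probe sets to the left, with 1370089_at nearest to 0 at -0.31 under the pseudocount.

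Within hypothalamus, 0 of 5 member probe sets passed in any comparison, beside 0.0107% of all probe sets for RYGB-Success over Pair-Fed, 0% for RYGB-Fail over Pair-Fed and 0.00537% for RYGB-Success over RYGB-Fail. Ucp2, which brain cells express, had signals of 239, 329 and 431 in RYGB-Success, 215, 319 and 247 in RYGB-Fail and 152, 243 and 198 in Pair-Fed. The groups overlapped, and RYGB-Success over Pair-Fed gave 0.74 ± 0.30 (unadjusted p = 0.0287, adjusted p = 0.338). Cpt1b had 63.3, 47.3 and 25.9 in RYGB-Success, 146, 74.3 and 96.2 in RYGB-Fail and 48.5, 85.5 and 71.6 in Pair-Fed. Here too RYGB-Success lay wholly below RYGB-Fail, at -1.25 ± 0.51 (unadjusted p = 0.0274, adjusted p = 0.784). These RYGB-Success values lie around the filter's signal of 52.7, and Cpt1b exceeded the 95th percentile of the unsampled-organ genes on 0 of 9 hypothalamus arrays. RYGB-Success array 3 held the highest Ucp2 and the lowest Cpt1b. Its array weight was the lowest (0.331), and its hybridisation controls had a mean log2 signal of 9.16, against 11.91 to 12.94 on the others. Without it 0 of 5 members had an unadjusted p under 0.05 in these 2 comparisons, as also without some other arrays. Groups that did not overlap in either direction were 2 of 5 for RYGB-Success over Pair-Fed (Ppargc1a 1370089_at lower and 1395518_at higher), 1 of 5 for RYGB-Fail over Pair-Fed (Ppargc1a 1370089_at lower) and 1 of 5 for RYGB-Success over RYGB-Fail (Cpt1b lower), beside 18%, 9.18% and 10.5% of all probe sets.

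Whether a treatment difference was itself different between the tissues was tested for Ucp2, Cpt1b, Ppargc1a 1393743_at and Ppargc1a 1395518_at, which passed the filter in both. In the 3 comparisons 0 of 4 passed, and 0% of the 15531 probe sets tested passed in each. For Cpt1b in RYGB-Success over RYGB-Fail the difference in fat minus that in hypothalamus was -0.77 ± 0.80 (adjusted p = 0.864). For Ppargc1a 1393743_at it was 1.39 ± 0.86 in RYGB-Success over Pair-Fed and 1.51 ± 0.86 in RYGB-Fail over Pair-Fed (adjusted p = 0.723 and 1.00). The values without an adjusted p under 0.05 do not show that the tissues responded alike.

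Other genes of heat production and fuel use were taken from 6 lists, with 1 probe set for each gene, and 0 members of any list passed in any fat comparison. Of brown and beige adipocyte genes 10 of 17 on the array were above the filter. For RYGB-Success over Pair-Fed 1 of the 10 lay wholly higher and 1 wholly lower, beside 10.9% and 7.69% of all probe sets tested. For RYGB-Fail over Pair-Fed 2 lay wholly higher and 1 wholly lower, beside 2.57% and 4.33%. The 2 include Cox8b, which reached the filter's signal of 88.9 only through its RYGB-Fail values, so this count is a description. For RYGB-Success over RYGB-Fail 1 lay wholly higher and 0 wholly lower, beside 5.26% and 2.61%. Cidea, a lipid droplet protein of brown fat, had signals of 880, 848 and 506 in RYGB-Success, 474, 426 and 850 in RYGB-Fail and 1341, 1187 and 1498 in Pair-Fed. Both bypass groups lay below Pair-Fed on every array, with differences of -0.89 ± 0.37 for RYGB-Success and -1.27 ± 0.37 for RYGB-Fail (unadjusted p = 0.0345 and 0.00525, adjusted p = 0.957 and 1.00). Cox8b, a cytochrome oxidase subunit of brown fat and also of muscle, was at 39.6, 85.3 and 204 in RYGB-Success, 747, 13650.1 and 199 in RYGB-Fail and 57.0, 41.5 and 63.0 in Pair-Fed. Its high values were on the 2 RYGB-Fail arrays with most muscle signal, and their part in it was not tested. Epsti1, on the brown and beige list, is also induced by interferon. It was at 320, 464 and 1134 in RYGB-Success, 193, 225 and 291 in RYGB-Fail and 185, 154 and 148 in Pair-Fed. RYGB-Success lay above both other groups on every array, and its differences were 1.78 ± 0.49 over Pair-Fed and 1.25 ± 0.49 over RYGB-Fail (adjusted p = 0.649 and 0.830). Among the others with the lowest p in a comparison, Esrrg, a nuclear receptor that partners PGC-1alpha, had -0.78 ± 0.43 in RYGB-Success over Pair-Fed, Pank1, which starts coenzyme A synthesis, 1.14 ± 0.74 in RYGB-Fail over Pair-Fed, and Fgfr1, the receptor for Fgf21, -0.59 ± 0.36 in RYGB-Success over RYGB-Fail. Prdm16, a regulator of beige adipocyte identity, was at 2367, 829 and 403 in RYGB-Success, 1247, 391 and 760 in RYGB-Fail and 882, 706 and 950 in Pair-Fed, with full overlap.

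Of the genes that carry the adrenergic signal to lipolysis, 17 of 19 were above the filter. For RYGB-Fail over Pair-Fed 16 of the 17 were below 0, with a median of -0.49 beside -0.09 over all probe sets tested. For RYGB-Success over Pair-Fed 10 of 17 were below 0, with a median of -0.33 beside 0.11, and for RYGB-Success over RYGB-Fail 13 of 17 were above 0, with a median of 0.12 beside 0.17. The lowest p were those of Prkaca, the catalytic subunit of protein kinase A (-0.77 ± 0.33), G0s2, an inhibitor of the lipase ATGL (-0.84 ± 0.41), and Prkar2b, a regulatory subunit (-0.66 ± 0.38), in RYGB-Success over Pair-Fed. In RYGB-Fail over Pair-Fed they were those of Abhd5, the activator of ATGL (-0.71 ± 0.28), G0s2 (-0.87 ± 0.41) and Pnpla2, which encodes ATGL (-0.73 ± 0.36), and in RYGB-Success over RYGB-Fail those of Abhd5 (0.78 ± 0.28), Pnpla2 (0.93 ± 0.36) and Prkar1a, another regulatory subunit (0.59 ± 0.24). Pnpla2, chosen after its values were seen, had 2304, 2705 and 1751 in RYGB-Success, 1286, 1351 and 906 in RYGB-Fail and 1360, 3082 and 1711 in Pair-Fed, so that RYGB-Fail lay below both other groups. Of the 17 genes, 3 lay wholly higher and 0 wholly lower in RYGB-Success than in RYGB-Fail, beside 5.26% and 2.61% of all probe sets tested. For RYGB-Fail over Pair-Fed 0 lay wholly higher and 5 wholly lower, beside 2.57% and 4.33%. For RYGB-Success over Pair-Fed 0 lay wholly higher and 3 wholly lower, beside 10.9% and 7.69%. The muscle marker mean was also higher on all RYGB-Fail arrays (7.83 to 13.51) than on any other fat array (5.35 to 7.48). The mean log2 signal of 10 adipocyte markers was 12.02, 12.005 and 11.36 in RYGB-Success, 11.46, 10.96 and 12.38 in RYGB-Fail and 11.84, 12.56 and 11.89 in Pair-Fed, with overlap, and the part of either marker list in these differences was not tested.

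All 21 genes of mitochondrial fatty acid oxidation were above the filter. Their medians were -0.04, -0.02 and 0.02 for RYGB-Success over Pair-Fed, RYGB-Fail over Pair-Fed and RYGB-Success over RYGB-Fail. These stand beside 0.11, -0.09 and 0.17 over all probe sets tested. Of the 21, 0 lay wholly higher and 1 wholly lower in RYGB-Success than in Pair-Fed, beside 10.9% and 7.69%. In RYGB-Fail over Pair-Fed these counts were 0 and 3, beside 2.57% and 4.33%. In RYGB-Success over RYGB-Fail the counts were 1 and 0, beside 5.26% and 2.61%. Beside Cpt1a, the lowest p were those of Etfb, an electron carrier (-0.86 ± 0.39), Hadh (0.53 ± 0.35) and Acaa2 (0.65 ± 0.47), which act late in the cycle, in RYGB-Success over Pair-Fed. They were those of Eci2, an isomerase (-1.04 ± 0.40), Cpt1a (-0.83 ± 0.37) and Etfb (-0.55 ± 0.39) in RYGB-Fail over Pair-Fed, and those of Cpt1a, Eci2 (0.98 ± 0.40) and Acaa2 (0.99 ± 0.47) in RYGB-Success over RYGB-Fail. Of thyroid hormone genes 6 of 9 were above the filter. For RYGB-Fail over Pair-Fed 1 of the 6 lay wholly lower, beside 4.33% of all probe sets tested. For RYGB-Success over RYGB-Fail 1 of the 6 lay wholly higher, beside 5.26%. Thrsp, a thyroid hormone target of lipid synthesis, was at 5824, 12753 and 6233 in RYGB-Success, 4034, 4020 and 5328 in RYGB-Fail and 6752, 7706 and 6954 in Pair-Fed. RYGB-Fail lay below both other groups on every array, at -0.69 ± 0.31 over Pair-Fed, and RYGB-Success over RYGB-Fail gave 0.81 ± 0.31 (adjusted p = 1.00 and 0.830). The receptors Thra and Thrb and the cofactors Ncor1 and Ncoa1 had differences of at most 0.29 in size where they were among the 3 lowest p.

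Of the other mitochondrial carriers, all 5 were above the filter. For RYGB-Success over RYGB-Fail 1 of the 5 lay wholly higher and 0 wholly lower, beside 5.26% and 2.61% of all probe sets tested. Slc25a5, the adenine nucleotide translocase of most tissues, was at 4104, 4414 and 3178 in RYGB-Success, 3101, 1293 and 1330 in RYGB-Fail and 4261, 3172 and 2697 in Pair-Fed. RYGB-Success lay above RYGB-Fail on every array, at 1.14 ± 0.37 (adjusted p = 0.817), and RYGB-Fail over Pair-Fed gave -0.92 ± 0.37 (adjusted p = 1.00). Slc25a4, the form of heart and muscle, was at 2336, 1847 and 1801 in RYGB-Success, 3954, 13637 and 1116 in RYGB-Fail and 2751, 2776 and 2212 in Pair-Fed, highest on the RYGB-Fail array with most muscle signal. Slc25a27, also called Ucp4 and known from brain, had 0.92 ± 0.61 and Slc25a30, -0.36 ± 0.40, in RYGB-Success over Pair-Fed. Of the genes for creatine and calcium cycling, heat sources that do not need Ucp1, 8 of 11 were above the filter. For RYGB-Fail over Pair-Fed 2 of the 8 lay wholly higher and 0 wholly lower, beside 2.57% and 4.33% of all probe sets tested. Sln is among the 2, and its mean exceeded the filter's 88.9 only through its RYGB-Fail values, so this count is a description. Sln, sarcolipin, a muscle regulator of the calcium pump, was at 88.1, 120 and 134 in RYGB-Success, 249, 149 and 257 in RYGB-Fail and 13.3, 120 and 32.8 in Pair-Fed. RYGB-Fail lay above Pair-Fed on every array (2.50 ± 0.84, unadjusted p = 0.0115, adjusted p = 1.00), and RYGB-Success over Pair-Fed gave 1.59 ± 0.84. Gamt and Slc6a8, which make and import creatine, Ckb, a creatine kinase, and Atp2a2, the calcium pump, had differences of at most 0.93 in size where they were among the 3 lowest p.

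**Figure D5:**
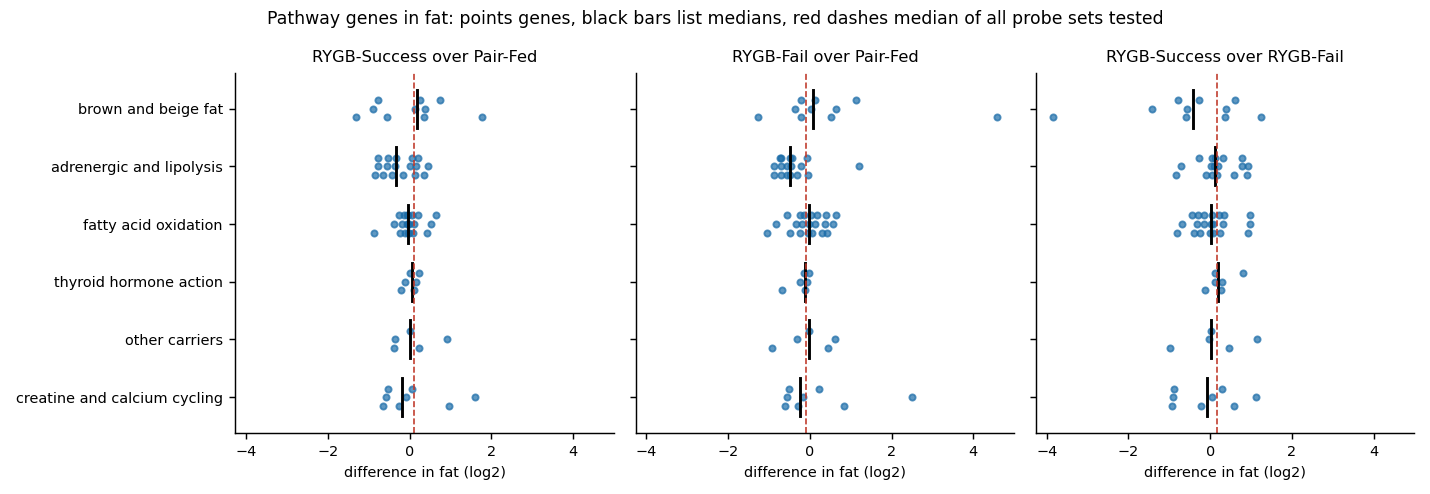
Log2 differences in fat of the pathway genes above the filter, by list and comparison; points are genes, black bars list medians and red dashed lines the median of all probe sets tested. The outlying point of the brown and beige list is Cox8b, at 4.58 in RYGB-Fail over Pair-Fed and -3.84 in RYGB-Success over RYGB-Fail.

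The named genes whose log2 signal over the 9 fat arrays was most like that of each member were listed by Pearson's r, as a description in which all points share the same arrays. For Ucp2 they were Rbck1 (0.95), Dcun1d1 (0.95) and Rbm8a (0.92). For Ucp3 they were Cntn4 (0.95), Iqcc (0.93) and Sgta (0.92), and for Adrb3 Prickle2 (0.91), Dtx3l (0.88) and Nup58 (0.88). For Ppargc1a (1395518_at) they were Zfp91 (0.98), Vil1 (0.98) and Gatad2b (0.97). For Cpt1b they were Uqcc1 (0.98), Atp5f1d (0.97), a subunit of ATP synthase, and Anapc16 (0.97). None of these 15 genes was on the pathway lists. Between members the r was 0.68 for the 2 tested probe sets of Ppargc1a, and between probe sets of different members it ran from -0.49 (Cpt1b and Ucp2) to 0.54 (Ucp3 and Ppargc1a 1393743_at).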

How the data were processed

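Total RNA from 9 fat and 9 hypothalamus samples was extracted with RNeasy, amplified and biotin-labelled with WT-Ovation, per the labels' protocols, and hybridised to 1-colour rat arrays. The authors deposited 1 linear intensity for each probe set and array. The submitters' processing notes name MAS5 and GCOS, with versions not given in the sources used here. The mean after trimming 2% at each end was 500.1 to 500.2 on every array, so arrays share a mean and not a median. Detection calls were not used, and the number of arrays limits the precision.

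Values were taken as log2 signal with no pseudocount. The upper 60% by mean were tested with limma 3.58.1 in R 4.3.3 (lmFit, eBayes with a trend, 2-sided, Benjamini-Hochberg over all probe sets tested, threshold 0.05), 18625 per tissue, over all 9 arrays of a tissue or all 18. Single symbols were held by 20826 probe sets, several by 436 and none by 9780. The members and lists were chosen with earlier results of these data known. Named were all members, from each list the 3 lowest p in each fat comparison, and the 3 genes most like each member. Prdm16 and the list genes shown by array were chosen after their values were seen. Tables and figures were made in Python 3.11.15 (pandas 2.3.3, matplotlib 3.10.9), and the limma step was tested on simulated data. Alternatives were a pseudocount of 50, no filter, quantile normalization, centring on the median, array weights, the replicate number as a block, leaving out each array, and muscle markers as a covariate.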

Additional observations from a re-analysis of the deposited data

How the results depend on the processing

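Replicate numbers were not taken to pair the samples: deviations of same-numbered arrays correlated at -0.13 to 0.29 in fat (3 of 9 pairs over 0.1), -0.16 to 0.070 in hypothalamus (0 of 9) and -0.059 to 0.20 across tissues (4 of 9). With the replicate block 0 probe sets passed in each fat comparison, 2, 0 and 2 in hypothalamus, 14182 between tissues and 0 for each tissue difference, and no member call changed. No member passed a treatment comparison under any setting. Counts of all calls between treatments moved by over 1.5 times in these cases, while those between tissues ran from 13471 (centring) to 16135 (no filter) and hypothalamus RYGB-Success over Pair-Fed had 3 with a pseudocount of 50, beside 2 as reported. The order is RYGB-Success over Pair-Fed, RYGB-Fail over Pair-Fed and RYGB-Success over RYGB-Fail. With array weights 39, 35 and 26 passed in fat, 35, 12 and 4 as tissue differences, and 6 in the first and 6 in the third comparison of hypothalamus. Centring on the median gave 6 and 2 in hypothalamus, and a pseudocount of 50, no filter, quantile normalization and the block each gave 2 in the third. Muscle markers as a covariate gave 1 in the second and 1 in the third fat comparison, with and without Myh1 (a setting chosen after seeing the data, since Myh1 was as high in hypothalamus). Leaving out 1 array gave 0 to 22, 0 to 42 and 0 to 1116 in fat (22 without RYGB-Success array 1, 42 and 1116 without RYGB-Fail array 3), 1 to 65 (65 without RYGB-Success array 2), 0 and 0 to 6 in hypothalamus, 13751 to 14663 between tissues and 0 to 41, 0 to 17 and 0 to 132 as tissue differences.

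Signs of member differences turned, Cpt1b and Ppargc1a in RYGB-Fail over Pair-Fed (1.15 and 0.87 as reported) among them, and the cause was not tested. With array weights these were, in fat, for RYGB-Fail over Pair-Fed 0.087 (Adrb3), -0.45 (Ucp3) and -0.24 (Ppargc1a 1395518_at), and for RYGB-Success over RYGB-Fail 0.52 (Ucp3) and 1.07 (Ppargc1a 1393743_at). In hypothalamus Ppargc1a gave 0.17 and 0.36 with 1393743_at (RYGB-Success over Pair-Fed and over RYGB-Fail), 0.19 with 1395518_at and -0.060 with 1370089_at. As tissue differences it gave -0.24 and 0.96 with 1395518_at and 0.43 with 1393743_at. Quantile normalization gave -0.20 (Ucp3, RYGB-Success over Pair-Fed), -0.11 (Ppargc1a 1395518_at, RYGB-Success over RYGB-Fail) and 0.056 (Ppargc1a 1393743_at, hypothalamus), and centring -0.081 (Adrb3) and -0.19 (Ucp3). The muscle covariate gave -0.16 and, without Myh1, -0.13 for Cpt1b in RYGB-Fail over Pair-Fed and -1.12 in both forms for Ppargc1a 1395518_at in RYGB-Success over RYGB-Fail.

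Leaving out 1 array gave, in fat, for RYGB-Success over Pair-Fed -0.31 to 0.89 (Adrb3) and -0.21 to 0.54 (Ucp3), for RYGB-Fail over Pair-Fed -0.85 to 0.18 (Adrb3), -0.44 to 0.69 (Ucp3) and -0.21 to 1.68 (Ppargc1a 1395518_at), and for RYGB-Success over RYGB-Fail -0.52 to 0.62 (Ucp3), -1.26 to 0.41 (Ppargc1a 1393743_at) and -0.43 to 1.46 (1395518_at). In hypothalamus Ppargc1a ran from -0.40 to 0.24 and from -0.26 to 0.38 (1393743_at), from -0.39 to 0.54 (1395518_at) and from -0.074 to 0.48 (1370089_at). Tissue differences ran from -0.59 to 0.082 and from -0.23 to 1.12 (Cpt1b), from -0.69 to 0.36 (Ucp2), from -0.18 to 1.72 and from -1.01 to 0.88 (Ppargc1a 1395518_at) and from -1.24 to 0.43 (1393743_at).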
